A study of Mus musculus with 46 samples.

Results

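The genes described here are 36 genes of the amino acid stress response and of tRNA charging, chosen by name: 20 cytosolic aminoacyl-tRNA synthetase genes, 2 synthetase scaffold genes (*Aimp1*, *Aimp2*), 7 enzymes of amino acid and 1-carbon synthesis (*Asns*, *Psat1*, *Phgdh*, *Psph*, *Shmt2*, *Mthfd2*, *Gpt2*), 3 amino acid transport genes (*Slc7a11*, *Slc7a5*, *Slc3a2*), and *Sesn2*, *Cebpb*, *Cebpg* and *Vldlr*. Earlier results of these data were known when the genes were chosen. Of the 36, 35 had a row among the 31854 genes of the RNA count table and all 35 passed the filter on low counts, while the RNA of *Cebpb* was not analysed here. Ribosome-bound RNA was taken by translating ribosome affinity purification (TRAP) from AgRP neurons, which drive feeding, and from POMC neurons, which restrain it, both in the arcuate nucleus of male C57BL/6J mice aged 6 to 11 weeks. All mice carried the NuTRAP allele, which tags ribosomes with GFP-L10a and labels nuclei wherever Cre is active, together with an IRES-Cre knocked in at the AgRP or the POMC gene (AgRP-IRES-Cre, POMC-IRES-Cre). Mice were fed ad libitum and given vehicle, fasted overnight for 18 to 20 h and given vehicle, or fasted and given leptin at 5 mg/kg (the group called leptin below), and the tissue was taken 3 h after the injection. The length of the fast, the dose and the interval are stated for the AgRP mice. For the POMC mice only the states are.

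There were 4 fasted, 3 fed and 4 leptin AgRP libraries and 2 POMC libraries of each state, each from 4 pooled arcuate nuclei, so the p-values measure the spread between pools. Chromatin accessibility (ATAC-seq) of sorted AgRP nuclei was measured in 2 libraries of each state. RNA libraries held 25581041 to 54511107 counts and ATAC-seq libraries 8263234 to 17190963. CPM values below are read counts scaled by TMM to a common library total within a neuron type, and a gene was called where its false discovery rate (FDR) was below 0.05 and its log2 fold change was beyond 0.5 in either direction.

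Cells read the supply of amino acids through uncharged tRNA. Uncharged tRNA activates the kinase GCN2 (gene *Eif2ak4*), which phosphorylates the initiation factor eIF2, lowers general translation and favours translation of the transcription factor ATF4. ATF4, paired with C/EBP proteins, binds the C/EBP-ATF response element (CARE) near genes for amino acid synthesis, transport and tRNA charging, and fasting is a state in which both amino acid supply and the firing of AgRP neurons change.

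The stretches below are shown because they hold the CARE core in the start region of 8 members, among them *Vldlr*, *Tars*, *Asns* and *Slc7a11*, on which the RNA results turn. The core TGATGNAA was searched on both strands in RefSeq windows (GRCm38.p6) from 250 bases before to 50 bases after each annotated start, and capitals mark the matches. A match in capitals that reads TTGCATCA or TTTCATCA is the same core on the other strand. Each stretch is written 5′ to 3′ on the gene's own strand, and distances are from the RefSeq start of its window. *Vldlr* has a pair of windows: the match lies before the downstream RefSeq start, and the window at the upstream one, the annotated gene start used for the peaks below, held none.
*Vldlr*, chr19:27216794-27216853, plus strand, core 192 bases before the start: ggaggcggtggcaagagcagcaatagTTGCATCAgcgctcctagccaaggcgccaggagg
*Asns*, chr6:7693210-7693258, minus strand, core 15 bases before the start: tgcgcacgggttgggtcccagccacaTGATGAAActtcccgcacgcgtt
*Tars*, chr15:11399659-11399699, minus strand, core 7 bases before the start: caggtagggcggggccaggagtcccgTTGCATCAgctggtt
*Slc7a11*, chr3:50443627-50443705, minus strand, 2 facing cores, the nearer 39 bases before the start: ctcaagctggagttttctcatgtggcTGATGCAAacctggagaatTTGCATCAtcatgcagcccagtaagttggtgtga
*Aars*, chr8:111033704-111033763, plus strand, core 104 bases before the start: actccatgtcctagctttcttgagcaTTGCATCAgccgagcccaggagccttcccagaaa
*Aars*, chr8:111033840-111033869, plus strand, a further core 9 bases after the start: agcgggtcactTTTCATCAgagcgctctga
*Gars*, chr6:55037945-55038000, plus strand, core 22 bases before the start: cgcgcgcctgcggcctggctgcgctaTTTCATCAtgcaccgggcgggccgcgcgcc
*Iars*, chr13:49682126-49682155, plus strand, core 7 bases after the start: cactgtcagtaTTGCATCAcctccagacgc
*Yars*, chr4:129189895-129189924, plus strand, core 3 bases after the start: acgagctcagcTGATGCAAcccgacgggac

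RefSeq windows were matched for 28 of the 36 members, and *Cars*, *Hars*, *Lars*, *Nars*, *Rars*, *Vars*, *Wars* and *Slc7a5* had no entry. The core TGATGNAA was found in 8 of the 28 members (28.6%) and in 1219 of 27025 genes with a window (4.51%). The stricter TGATGCAA, a subset of the same matches, was found in 6 members (21.4%) and in 279 genes (1.03%). The match is a description of these letters in this window.

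Some libraries stood apart in ways that bear on the members. The AgRP libraries matched their label, with *Agrp* at 314 to 2170 CPM against 5.69 to 26.7 in POMC libraries, and the 4 summed POMC neuron markers were at 1630 to 3000 CPM in POMC libraries against 190 to 318 in AgRP libraries. The 6 summed AgRP neuron markers, *Agrp* among them, were at 1660 to 2380 CPM in fed AgRP libraries, 2960 to 6510 in fasted and 2160 to 6480 in leptin ones, so that fed and fasted did not overlap, and 8 summed microglia markers were at 25.6 to 45.6 CPM fed, 20 to 44.7 fasted and 21.9 to 41.9 after leptin. The summed CPM of 9 astrocyte markers was 21600 to 28300 in the 3 AgRP libraries numbered 4 (1 of each state) and 2880 to 4580 in the other 8, and it was 23600 to 27000 in the 3 POMC libraries numbered 2 and 5790 to 6750 in the 3 numbered 1. Most of that sum was the glutamate transporter gene *Slc1a2*, the water channel gene *Aqp4* was at 170 to 217 CPM in the AgRP libraries numbered 4 and 38.2 to 121 in the other AgRP libraries, and no marker of the list was at 0 in any group. Within numbers 1, 3 and 4, *Aqp4* was at 47.8, 38.2 and 170 CPM fasted and at 121, 88.6 and 217 CPM fed (log2 fold change −0.91, FDR 0.466, and −0.88, FDR 0.0024, with the number as a block). *Slc1a2* was at 2380, 2400 and 27300 CPM fasted and at 3860, 3380 and 20600 CPM fed in the same numbers. In fasted against fed, 6 of 9 astrocyte markers (median −0.09), 6 of 7 oligodendrocyte markers (median −0.25) and all 6 tested microglia markers (median −0.59) were below 0. Of the tanycyte and ependymal markers 4 of 7 were above 0 (median 0.09), and of the endothelial and mural markers 4 of 8 (median −0.04). None of them was called by edgeR without the block or by DESeq2. With the block *Aqp4*, the oligodendrocyte gene *Mog*, the microglia genes *Cx3cr1* and *P2ry12* and the mural gene *Vtn* were called lower, beside 2.54% of all genes. The astrocyte markers *Sox9* (0.31), *Gjb6* (0.21) and *Fgfr3* (0.13) were above 0 with the block and the other 6 below. Several members moved with the library number, and the part of these markers in the members' values was not tested.

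*Eprs*, the glutamyl-prolyl-tRNA synthetase, was the plainest case, and its pattern was chosen after its values were seen. In fasted AgRP libraries 1 to 4 it was at 434, 558, 620 and 80.5 CPM, in fed libraries 1, 3 and 4 at 676, 718 and 75.0, and in leptin libraries 1 to 4 at 595, 583, 676 and 73.2. The libraries numbered 4 were thus low in every state, close to the 54.6 to 64.3 CPM of the 6 POMC libraries, and the states overlapped. *Slc7a11*, the cystine/glutamate exchanger, went the other way, at 95.3 to 120 CPM in the AgRP libraries numbered 4 against 23.8 to 63.6 in the other AgRP libraries, and at 118 to 154 in the POMC libraries numbered 2 against 38.1 to 68.0 in those numbered 1. *Slc7a5*, the light chain of the large neutral amino acid transporter, was at 177 to 240 CPM in the AgRP libraries numbered 4 and at 106 to 128 in the others.

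Over the 11 AgRP libraries the spread of each member's log2 CPM was divided between state and library number. Taken separately, the members' median share of the sum of squares was 23% over states, 50.8% over library numbers and 7.48% left over. More lay over numbers than over states in 23 of 35 members. There are more numbers than states, so random spread alone would put more over numbers, and the share over all genes was not computed. *Vldlr* had 96.5% over states, *Lars* 84.6%, *Slc3a2* 77.5%, *Psat1* 74.2%, *Asns* 72.7% and *Tars* 69.3%, while *Eprs* had 99% over numbers. The AgRP libraries of the same number deviated together, so the fit with the number as a block is given beside the first fit wherever it changed a call.

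**Figure D1:**
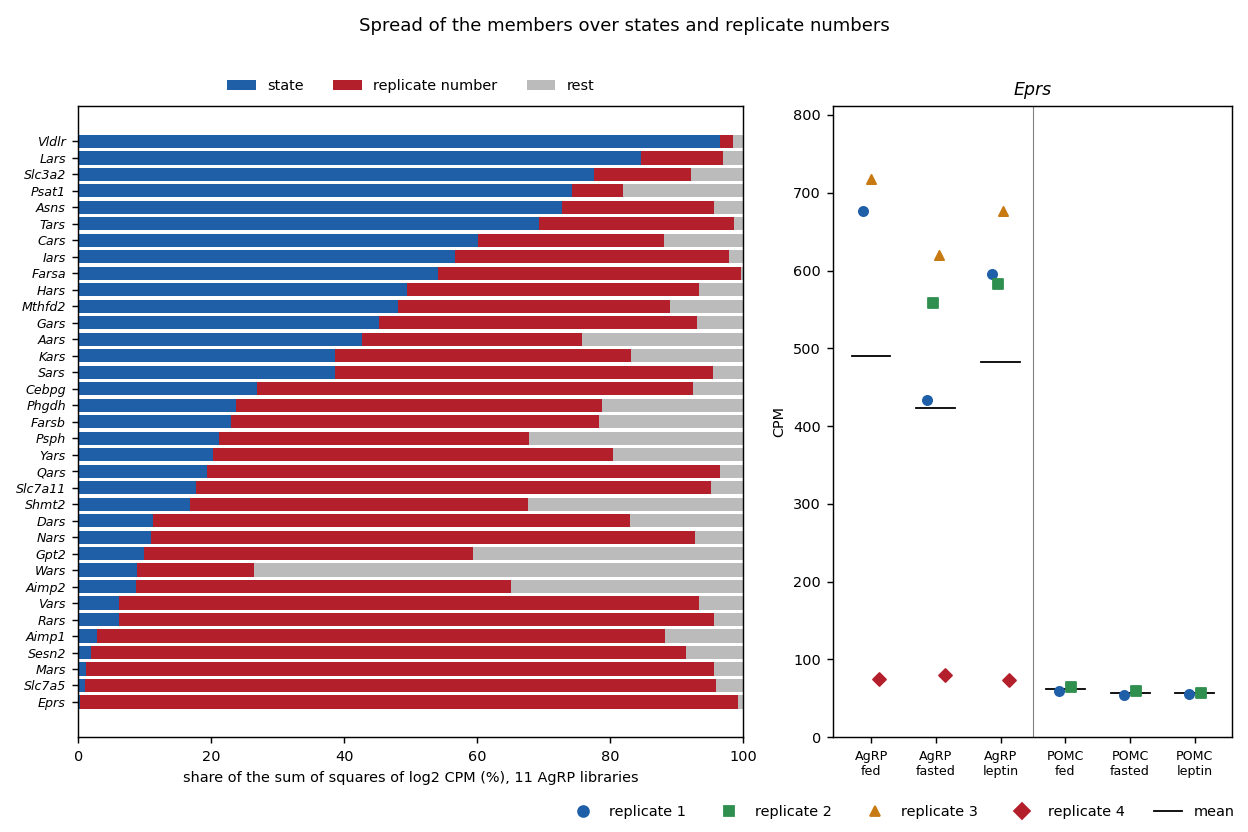
Left, share of each member's sum of squares of log2 CPM (x axis, %) over states (blue, fitted first), library numbers (red) and the rest (grey) in 11 AgRP libraries, ordered by the state share. Right, *Eprs* in CPM in each TRAP library by neuron type and state, with symbols for the library number and a line at the mean; the AgRP libraries numbered 4 sit at 73.2 to 80.5 CPM and the other AgRP libraries at 434 to 718.

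The members differed widely in level. Per kilobase of exon, in fed AgRP libraries, the highest mean levels were those of *Eprs* (64.9 ± 47.7 CPM per kb, SD, n = 3), *Asns*, which makes asparagine (53.0 ± 3.48), the glycyl-tRNA synthetase *Gars* (52.7 ± 4.74) and the asparaginyl-tRNA synthetase *Nars* (47.9 ± 3.49). The SD of *Eprs* spans the levels of the next 3, and those 3 neighbours differ by about their SD or less except *Asns* against *Nars*. The lowest level was that of the leucine sensor *Sesn2*, at 3.20 ± 0.564 CPM per kb. The median was 24.4 CPM per kb over the 20 synthetases and 7.15 over the 7 synthesis enzymes, from *Psph*, the phosphoserine phosphatase, at 3.46 to *Asns*.

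The first comparison asks what an overnight fast did to these genes in AgRP neurons. *Vldlr*, the very-low-density lipoprotein receptor and a known ATF4 target, rose, and 0 members fell. Most other members lay slightly above 0, with the synthetases outside the multisynthetase complex highest among the groups of synthetases. Of the genes tested, 2.82% were called higher and 1.07% lower, against 1 and 0 of 35 members.

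*Vldlr* was at 216, 198, 223 and 216 CPM in the fasted libraries 1 to 4 and at 141, 131 and 143 CPM in the fed libraries 1, 3 and 4. Every fasted library was above every fed one, and the libraries numbered 4 lay among the rest. The log2 fold change was 0.62 (SE 0.07, FDR 0.00131, edgeR quasi-likelihood test), and it stayed between 0.58 and 0.66 with any 1 library left out. Groups also did not overlap, in the higher direction, for *Kars*, *Lars*, *Psat1* and *Slc3a2*, which makes 5 of 35 members, and they did not overlap for 11.6% of all genes in that direction. In the other direction the groups were apart for 0 members and 6.69% of all genes.

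Past the FDR alone, with no limit on fold, were 3 members higher and 0 lower, where 3.81% of all genes were higher and 1.57% lower. Besides *Vldlr* these were *Slc3a2*, the heavy chain shared by several amino acid transporters (log2 fold change 0.46, SE 0.10, FDR 0.0189), and *Psat1*, the phosphoserine aminotransferase of serine synthesis (0.36, SE 0.09, FDR 0.0441), named after their values were seen. With any 1 library left out the count ran from 1 to 6. It was 1 without the fasted library numbered 1, 2 or 3 or the fed library numbered 4, and 6 without the fasted library numbered 4, and the FDR reached 0.113 for *Slc3a2* and 0.192 for *Psat1*. *Slc3a2* was at 67.1, 68.6, 65.8 and 53.8 CPM in the fasted libraries and at 46.8, 48.7 and 43.7 CPM in the fed ones. Its lowest fasted library was the one numbered 4, which still lay above all fed libraries. The median log2 fold change of the members was 0.13, with 26 of 35 above 0, beside a median of 0.02 over all genes tested. The members' median was 0.07 without the fasted library numbered 3 or without the fed library numbered 4, and 0.08 by library size scaling, where that of all genes was −0.04.

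With the library number as a block, 2 members were called higher and 1 lower, where 4.40% of all genes were called higher and 2.54% lower. *Hars*, the histidyl-tRNA synthetase, was at 90.7, 103, 107 and 68.1 CPM in the fasted libraries 1 to 4 and at 60.3, 69.0 and 53.6 CPM in the fed libraries 1, 3 and 4. The fasted library numbered 4 fell among the fed values, although within each number the fasted library was the higher. Its log2 fold change was 0.60 (SE 0.20, FDR 0.118) without the block and 0.53 (SE 0.09, FDR 0.00109) with it.

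*Slc7a11* fell with the block. It was at 27.8, 25.6, 24.9 and 112 CPM in the fasted libraries and at 63.6, 43.0 and 120 CPM in the fed ones, so the groups overlapped only through the fasted library numbered 4. The log2 fold change was −0.67 (SE 0.63, FDR 0.639) without the block, −0.62 (SE 0.15, FDR 0.0115) with it and −1.04 (SE 0.23, FDR 0.0262) without the 3 libraries numbered 4. With 1 library left out and no block it was −1.54 (FDR 0.0853) without the fasted library numbered 4 and −0.19 (FDR 0.954) without the fed one. The glial markers *Aqp4* and *Cx3cr1* were also called lower with the block, and their part in this was not tested. Past the FDR alone, the block gave 13 members higher and 1 lower, where 15.2% of all genes were higher and 9.31% lower. *Vldlr* stood at 0.65 with the block (FDR 1.28e-05) and at 0.63 without the libraries numbered 4 (FDR 0.00414).

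*Cars*, the cysteinyl-tRNA synthetase, was at 48.3, 42.6, 43.8 and 31.3 CPM in the fasted libraries and at 31.6, 30.4 and 28.7 CPM in the fed ones. The fasted library numbered 4 was again the low one and overlapped the fed group. Its log2 fold change was 0.46 (SE 0.15, FDR 0.113), and it was 0.52 (SE 0.10, FDR 0.0153) and called without the 3 libraries numbered 4. In that fit 2 members were called higher, *Cars* and *Vldlr*, and 1 lower, *Slc7a11*, beside 3.01% and 2.27% of all genes. Leaving out the fasted library numbered 4 alone gave 4 members called higher, *Cars*, *Hars*, *Slc3a2* and *Vldlr*, and 0 lower, beside 3.21% and 1.86% of all genes.

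By role, the 20 cytosolic synthetases had a median log2 fold change of 0.18, with 16 above 0, from −0.23 for the methionyl-tRNA synthetase *Mars* to 0.60 for *Hars*, and 0 of them were called by edgeR or by DESeq2. At an unadjusted p below 0.05, 7 of them were higher and 0 lower, where 12.4% of all genes were higher and 6.92% lower. The 12 synthetases outside the multisynthetase complex had a median of 0.25 with 11 above 0, and the 10 members of that complex, including the scaffolds *Aimp1* (−0.14) and *Aimp2* (0.08), had a median of 0.08 with 6 above 0. A further scaffold of the complex, *Eef1e1*, is no member and was at 0.14 (FDR 0.698). The 7 synthesis enzymes ranged from −0.39 for *Phgdh*, the first enzyme of serine synthesis, to 0.36 for *Psat1* with a median of 0.02, and the 3 transport genes from −0.67 for *Slc7a11* to 0.46 for *Slc3a2*. *Sesn2* was at 0.09 and *Cebpg*, a C/EBP partner of ATF4, at 0.25 (FDR 0.549). The 8 members with the CARE core had a median of 0.18 with 7 above 0, and 19 analysed members whose windows lacked it had a median of 0.09 with 11 above 0.

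**Figure D2:**
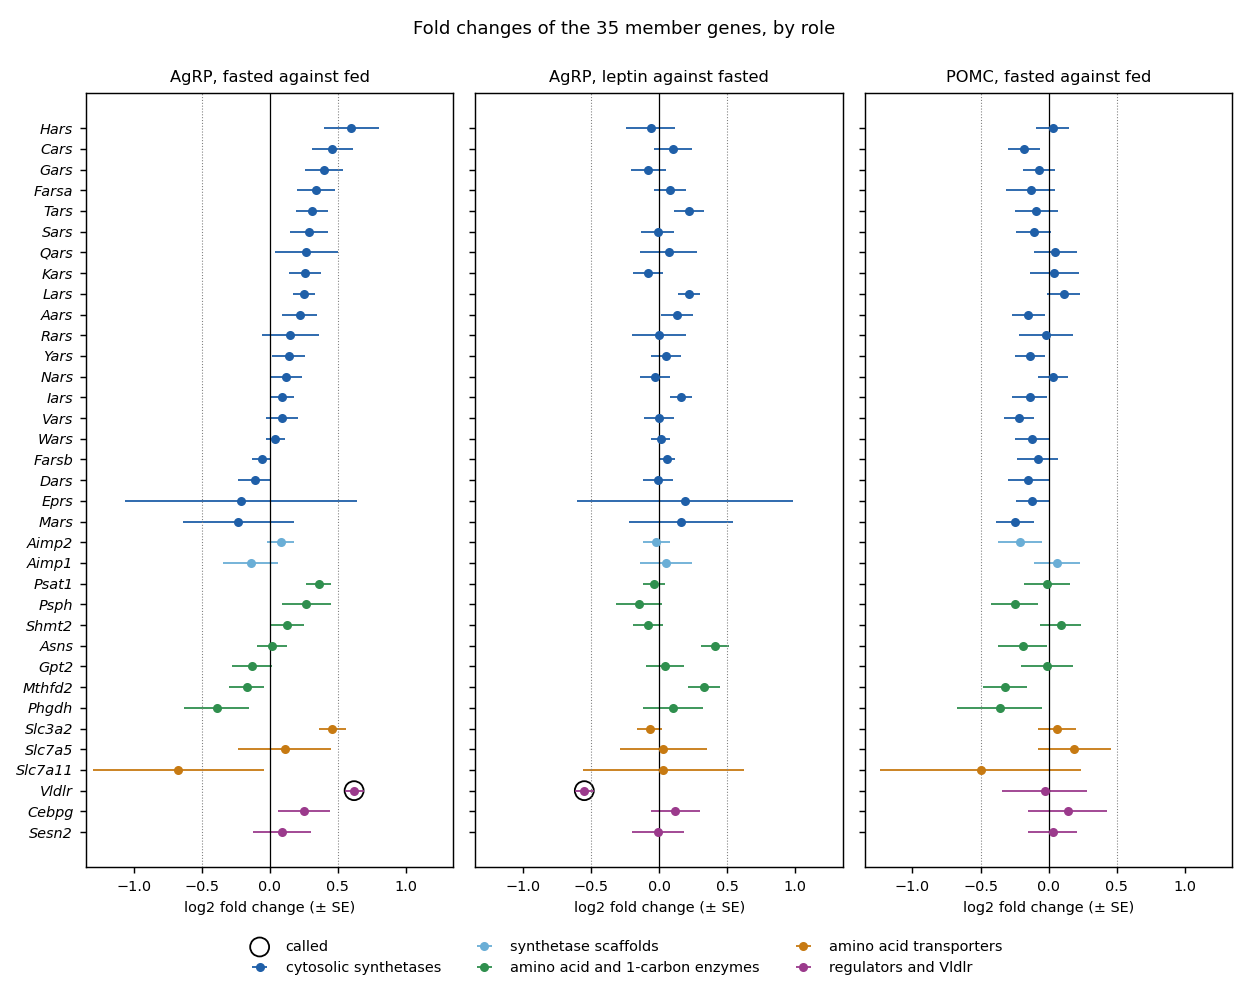
Log2 fold change with its SE (x axis) of the 35 analysed members, grouped and coloured by role and ordered by the first panel, for AgRP fasted against fed, AgRP leptin against fasted and POMC fasted against fed. Circles mark called genes (*Vldlr*, higher after the fast and lower after leptin), dotted lines mark a log2 fold change of 0.5 in each direction, and the wide bars of *Eprs* and *Slc7a11* belong to genes that differ between library numbers.

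The sensing arm and other genes of the pathway were taken from lists drawn up by name, with earlier results of these data known. Of 7 sensing genes, 1 was called higher with fasting, *Eif2ak2*, the kinase PKR that senses double-stranded RNA and not amino acids (22.4 against 14.2 CPM, log2 fold change 0.66, SE 0.15, FDR 0.0266). That call was lost without the fasted library numbered 1 or 3 or the fed library numbered 3 or 4, with FDRs up to 0.107. *Eif2ak4*, the amino acid sensor GCN2, was at 0.07 (FDR 0.766). Of 28 other stress response genes, 23 were tested and 2 were called higher and 0 lower. Over all genes tested, 2.82% were called higher and 1.07% lower.

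*Atf4* was at 73.6, 78.6, 79.0 and 69.6 CPM in the fasted libraries and at 47.1, 53.5 and 49.2 CPM in the fed ones. The groups did not overlap, and *Atf4* was called, higher by 0.59 on the log2 scale (SE 0.10, FDR 0.0082), though without the fed library numbered 1 its FDR was 0.0506. *Ddit4*, an inhibitor of mTORC1 signalling, was the other called gene, at 33.1 against 18 CPM (0.88, SE 0.13, FDR 0.00301). With the block, *Ppp1r15a*, the eIF2 phosphatase subunit GADD34 (0.69, FDR 0.00153), and *Slc7a1*, a cationic amino acid transporter (0.52, FDR 0.000116), were called higher as well. The block called 4.40% of all genes higher and 2.54% lower. *Ddit3*, which encodes CHOP, was at −0.37 (FDR 0.499) and *Chac1*, a glutathione-degrading enzyme, at 0.20 (FDR 0.423), while *Trib3*, a pseudokinase that ATF4 induces strongly in stressed cells, was below the filter at 0.514 CPM fasted and 0.503 CPM fed.

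**Figure D3:**
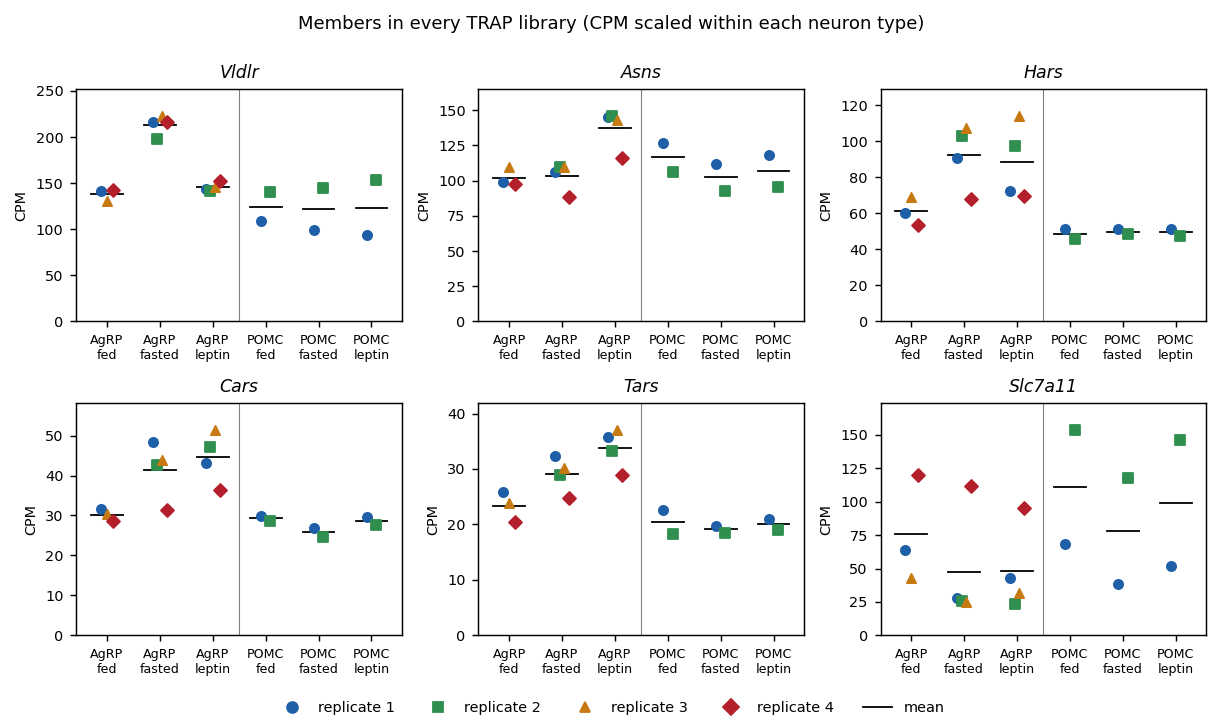
CPM (y axis, from 0) of 6 members in every TRAP library, by neuron type and state, with symbols for the library number and a line at the group mean; AgRP and POMC libraries were scaled separately. *Vldlr* is high in the 4 fasted AgRP libraries (198 to 223 CPM), *Asns* is high in the leptin ones, and the AgRP libraries numbered 4 lie low for *Asns*, *Cars*, *Hars* and *Tars* and high for *Slc7a11*.

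The second comparison asks what leptin changed in fasted AgRP neurons. *Vldlr* fell, to near its fed level, and 0 members were called higher, whereas 1.19% of all genes were called higher and 0.634% lower. *Vldlr* was at 144, 142, 146 and 152 CPM in the leptin libraries 1 to 4, below all 4 fasted libraries. Its log2 fold change against the fasted state was −0.55 (SE 0.07, FDR 0.00121), and against the fed state it was 0.08 (SE 0.07, FDR 0.602).

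*Asns* showed another order of the states. It was at 106, 110, 110 and 88.1 CPM fasted, at 99.1, 110 and 97.4 CPM fed, and at 145, 146, 143 and 116 CPM after leptin. The leptin libraries lay above all fasted and all fed libraries, and the library numbered 4 was the lowest within the fasted and the leptin group. Against the fasted state the log2 fold change was 0.41 (SE 0.10, FDR 0.067), with an FDR of 0.000445 with the block and of 0.0138 by DESeq2, and it remained under the fold limit in each. Against the fed state *Asns* was at 0.43 (SE 0.11, FDR 0.0347), while fasted against fed was at 0.02 (FDR 0.961).

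At an unadjusted p below 0.05, 3 members were higher after leptin (*Asns*, *Lars* and *Mthfd2*) and 1 lower (*Vldlr*), beside 4.73% and 4.40% of all genes, and DESeq2 called 0 higher. *Mthfd2*, the mitochondrial 1-carbon enzyme, was at 23.2 against 18.4 CPM (0.33, SE 0.12, FDR 0.287), and *Lars*, the leucyl-tRNA synthetase, at 37.3 against 31.9 (0.22, SE 0.08, FDR 0.267). Past the FDR alone there were 0 members higher and 1 lower (1.43% and 0.866% of all genes). The block called 0 higher and 1 lower, *Vldlr* (1.81% and 1.10% of all genes), and past the FDR alone it gave 4 higher, *Asns*, *Lars*, *Mthfd2* and *Tars*, and 1 lower (4.35% and 3.48%). Groups did not overlap for *Asns*, higher, and *Vldlr*, lower, beside 3.24% and 2.92% of all genes. The members' median was 0.03, beside −0.01 over all genes, with 20 of 35 above 0, and it was −0.04 without the fasted library numbered 4 and −0.01 without the leptin library numbered 3. The synthetases lay between −0.08 (*Gars*) and 0.22 (*Tars*, *Lars*). Of the other stress response genes, *Atf3*, an inducible partner of ATF4, rose from 8.62 to 44.7 CPM (2.38, SE 0.26, FDR 0.000756). *Atf4* was at 0.01 (SE 0.09, FDR 1), *Ddit4* at −0.45 (FDR 0.0852), and with the block *Stc2*, a secreted glycoprotein, was called higher at 0.71 (FDR 0.0181). *Sesn1*, of the same list, was lower past the FDR alone (−0.50), at 39.2, 41.6, 40.8 and 39.0 CPM after leptin. The fasted libraries were at 62.7, 57.5, 56.4 and 50.1 CPM. It was called lower in 3 of 8 fits with 1 library left out.

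The third comparison sets leptin against fed, so that fasting and leptin stand together on one side, with the fed libraries shared with the first comparison. *Cars* and *Tars*, the threonyl-tRNA synthetase, rose and 0 members fell, while 3.73% of all genes were called higher and 1.75% lower. *Tars* was at 35.8, 33.2, 37.1 and 28.9 CPM after leptin, at 25.8, 23.9 and 20.5 CPM fed, and at 32.3, 29.0, 30.1 and 24.8 CPM fasted. All leptin libraries lay above all fed libraries, with the library numbered 4 the lowest of each state, and the log2 fold change was 0.53 (SE 0.12, FDR 0.024). *Cars* was at 43.2, 47.1, 51.5 and 36.3 CPM after leptin, also above every fed library, and stood at 0.56 on the log2 scale (SE 0.15, FDR 0.0427). Both calls also stood with the block (FDR 0.000139 for *Tars* and 0.00162 for *Cars*), which called 5.34% of all genes higher and 3.23% lower, but not under each scaling or with each library left out. *Cars* was called in 1 of 7 fits with 1 library left out, the one without the leptin library numbered 4, and *Tars* in that one and without the fed library numbered 1, with FDRs up to 0.157 and 0.112. Without the leptin library numbered 4, 5 members were called higher (*Asns*, *Cars*, *Farsa*, *Lars* and *Tars*) and 0 lower, beside 4.57% and 1.90% of all genes.

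Past the FDR alone were 5 members higher and 0 lower, with 5.80% and 3.09% of all genes. With the block 14 members were higher and 1 lower by that measure, beside 17.5% and 12.5% of all genes, and at an unadjusted p below 0.05 without the block 11 were higher and 0 lower, beside 13.8% and 9.25%. The 5 without the block were *Cars*, *Tars*, *Lars* (0.47, SE 0.08, FDR 0.0074), *Asns* and *Slc3a2* (0.39, SE 0.10, FDR 0.0297). With 1 library left out that count ran from 1 to 7. It was 3 without the fed library numbered 1, and 1 without the fed library numbered 3 or 4 or the leptin library numbered 1, 2 or 3. Groups did not overlap for 9 members, all higher after leptin, and for 12.3% of all genes in that direction and 8.98% in the other. The members' median was 0.15, beside 0.01 over all genes, with 27 of 35 above 0 (a median of 0.24 without the leptin library numbered 4 and 0.09 by library size scaling), and the 12 synthetases outside the complex had a median of 0.30 against 0.10 for the 10 members of the complex. *Atf4* (0.60, FDR 0.0064), *Eif2ak2* (0.68, FDR 0.0187), *Ppp1r15a* (0.78, FDR 0.0255) and *Atf3* (3.13, FDR 0.000418) were called higher, beside 3.73% of all genes. Past the FDR alone, 5 of the 23 other stress response genes tested were higher and 2 lower, beside 5.80% and 3.09% of all genes. The lower ones were *Sesn1* (−0.37) and *Pck2* (−0.42), with FDRs up to 0.135 and 0.0709 with 1 library left out. The call of *Ppp1r15a* was lost in 4 of 7 fits with 1 library left out (fed 1 or 4, leptin 2 or 3) and that of *Eif2ak2* in 3 (fed 3 or 4, leptin 3).

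The 17 mitochondrial synthetases, encoded by other genes apart from the shared *Gars* and *Kars*, had a median log2 fold change of −0.17 in fasted against fed AgRP neurons, with 7 above 0. Of these, edgeR and DESeq2 called 0 in either direction. At an unadjusted p below 0.05, 0 were higher and 2 lower, beside 12.4% and 6.92% of all genes. Their median against fed was −0.15 after leptin, where 1 gene passed the FDR alone, the glutamyl-tRNA synthetase *Ears2* (−0.35, FDR 0.0451). By that measure 5.80% of all genes were higher and 3.09% lower in that comparison.

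**Figure D4:**
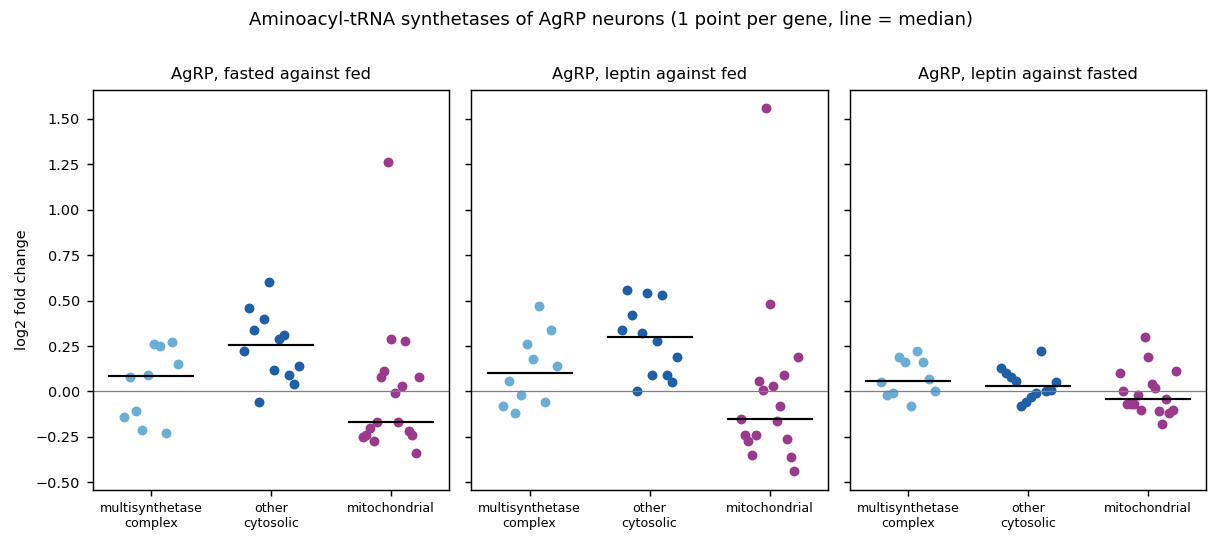
Log2 fold change (y axis) of aminoacyl-tRNA synthetase genes in AgRP neurons for 3 comparisons, 1 point for each gene and a line at the group median, in 3 groups: the 10 members of the multisynthetase complex (8 synthetases and the scaffolds *Aimp1* and *Aimp2*), the 12 other cytosolic genes and the 17 mitochondrial genes. In fasted against fed the medians are 0.08, 0.25 and −0.17, and the mitochondrial point at 1.26 is *Lars2*, with an SE of 1.15.

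The same comparisons were made in POMC neurons. Of 35 members, edgeR and DESeq2 called 0 in fasted against fed and 0 in leptin against fasted, and 0 passed an unadjusted p of 0.05 in either. Over all genes edgeR called 0 in either direction for both, and so the background was 0%, while DESeq2 called 3 genes for fasting and 10 for leptin. At an unadjusted p below 0.05, 135 genes (1.01%) were higher and 147 (1.10%) lower for fasting, and 115 (0.857%) and 36 (0.268%) for leptin. Each group held 2 libraries, 1 of which was rich in astrocyte RNA. The fasting change of *Vldlr* was −0.03 here (SE 0.31) and −0.05 with the library number as a block (SE 0.09, FDR 0.842), beside 0.62 in AgRP neurons.

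*Vldlr* was at 98.9 and 145 CPM in the fasted POMC libraries 1 and 2, at 109 and 140 CPM fed, and at 93.7 and 153 CPM after leptin. The number 2 library was the higher in every state and the states overlapped. *Tars* was at 19.8 and 18.5 CPM fasted and 22.6 and 18.2 CPM fed, and *Cars* at 26.9 and 24.7 CPM fasted and 29.9 and 28.6 CPM fed, with log2 fold changes of −0.09 and −0.18. The members' median fasting change was −0.09 (−0.05 without the fed library numbered 1 and −0.14 without the one numbered 2), with 11 of 35 above 0, from −0.50 for *Slc7a11* to 0.19 for *Slc7a5*, and the groups did not overlap for 3 members higher and 10 lower, where 12.7% and 12.8% of all genes did not. *Slc7a11* was at 38.1 and 118 CPM fasted, 68.0 and 154 CPM fed and 52.0 and 146 CPM after leptin, lower in the fasted library within each number, and it was not called with the block (FDR 0.0687), which called 0 members in this comparison, beside 0% of all genes higher and 0.0224% lower. For leptin against fasted the groups did not overlap for 3 members higher and 1 lower, beside 8.8% and 8.5% of all genes, the block called 0 members, beside 0.0522% higher and 0.00746% lower, and the members' median was −0.01 with 15 of 35 above 0, and −0.02 to 0.04 with 1 library left out. *Atf3* was at 8.08 and 4.64 CPM after leptin and 1.52 and 0.733 CPM fasted (log2 fold change 2.48, SE 0.54, FDR 1), and was called higher with the block (FDR 0.00491) and by DESeq2 (FDR 0.0182).

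The difference of the fasting effect between the neuron types was then tested in 1 model. edgeR and DESeq2 called 0 members, edgeR called 0.141% of all genes higher in AgRP than in POMC neurons and 0.0223% lower, and 3 members were higher at an unadjusted p below 0.05 (*Vldlr* 0.65, *Cars* 0.63 and *Slc3a2* 0.39) and 0 lower, beside 5.63% and 3.33% of all genes. With the library number nested in type as a block, *Vldlr* (0.69, FDR 0.00116) and *Cars* (0.60, SE 0.15, FDR 0.0202) were called higher and 0 members lower, beside 4.33% and 1.89% of all genes. Without the block the difference for *Vldlr* was 0.39 to 0.94 with 1 library left out, the lowest without the fasted POMC library numbered 1. Among the other stress response genes, *Atf3* (2.27, FDR 0.0149) and *Atf4* (0.67, FDR 0.00214) were called higher with the block, and *Atf3* also by DESeq2 (FDR 0.00643). The median difference of the members was 0.20, beside 0.00 over all genes, with 29 of 35 above 0, including all 12 synthetases outside the multisynthetase complex. For the leptin effect edgeR and DESeq2 called 0 members, beside 0.0447% of all genes higher and 0.0372% lower, and *Vldlr* was the 1 member past an unadjusted p of 0.05 (−0.58, SE 0.25), beside 1.17% higher and 1.73% lower. It was −0.17 without the leptin POMC library numbered 2, −0.32 without the fasted one numbered 1, and −0.87 without the leptin one numbered 1 or the fasted one numbered 2. With the block *Vldlr* was called lower in that comparison (−0.56, FDR 0.0165) and 0 members higher, beside 0.424% and 0.335% of all genes.

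Between the neuron types in the fed state 0 members were called by edgeR, where 1.06% of all genes were higher in AgRP and 1.11% lower. The types came from separate Cre lines and libraries, so line, library and neuron type cannot be told apart. The same holds for the differences of effects above. At an unadjusted p below 0.05, 4 members were higher in AgRP libraries and 3 lower, beside 6.68% and 6.73% of all genes, and groups did not overlap for 3 members higher and 5 lower, beside 15.4% and 14.7%. *Eprs* was the farthest, at 2.93 (SE 0.90, FDR 0.22), with the AgRP library numbered 4 near the POMC libraries, and *Mars* stood at 1.09 (SE 0.43, FDR 0.335). *Mthfd2* was at 0.61 (SE 0.14, FDR 0.119) and was called by DESeq2 (FDR 0.00952), which called 2.42% of all genes higher and 2.45% lower. *Slc7a5* (−0.65), *Sesn2* (−0.40) and the alanine aminotransferase *Gpt2* (−0.29) were on the POMC side. Without the fed AgRP library numbered 4, *Eprs* (3.43, FDR 0.00501) and *Mars* (1.43, FDR 0.0205) were called higher and 0 members lower, beside 1.12% and 1.04% of all genes. With all 3 states in the fit and the state as a covariate, *Eprs*, *Mthfd2*, *Mars*, *Hars*, *Qars* and *Rars* were called higher in AgRP neurons and *Slc7a5* lower, 6 and 1 of 35 members beside 6.48% and 7.20% of all genes. That fit takes libraries of the same number as independent although they deviate together, so its FDRs are too small.

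ATAC-seq of AgRP nuclei showed that 35 of the 36 genes, *Cebpb* among them and all but *Psat1*, had a peak within 1 kb of the annotated gene start (GENCODE M21, GRCm38), 1 peak for each gene, of which 34 were tested. The peak at *Slc7a11* was below the filter, at 0.126 to 1.41 CPM. In fasted against fed nuclei 0 of the 34 peaks were called higher and 3 lower, beside 1.77% and 3.60% of 12854 peaks near any protein-coding start and 18.1% and 8.88% of all 102237 peaks. The 3 lower peaks, at *Eprs*, *Dars* and *Kars*, belonged to synthetases of the multisynthetase complex. The *Kars* peak was not called by DESeq2 or by library size scaling, and only *Eprs* was with a mean over 5 CPM. With the block the peak at *Shmt2*, which is not in the complex, was called lower as well (−0.76, FDR 0.0415).

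The *Eprs* start peak (chr1:185362595-185363855) was at 78.2 and 81.6 CPM in the 2 fed libraries, at 57.1 and 48.2 CPM in the fasted ones and at 53.1 and 59.8 CPM after leptin (fasted against fed −0.60, SE 0.15, FDR 0.00441). The peak at *Dars*, the aspartyl-tRNA synthetase (chr1:128416620-128417725), was at 69.9 and 67.8 CPM fed, 44.9 and 48.3 CPM fasted and 46.1 and 62.9 CPM after leptin (−0.56, SE 0.16, FDR 0.0137). The peak at *Kars*, the lysyl-tRNA synthetase (chr8:112011035-112012220), was at 40.7 and 46.8 CPM fed, 31.1 and 30.5 CPM fasted and 34.3 and 32.7 CPM after leptin (−0.51, SE 0.18, FDR 0.0348). In each the fasted and fed libraries did not overlap. Without the fasted library numbered 2 none of the 3 was called (FDR 0.0913, 0.0537 and 0.167), without the one numbered 1 only *Eprs* was, and without the fed library numbered 2 *Kars* was not (FDR 0.168). In the TRAP libraries the RNA of these genes was not called, and that of *Kars* lay higher in fasted AgRP neurons (88.5 against 73.7 CPM, log2 fold change 0.26, FDR 0.236).

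The *Asns* start peak was at 46.8 and 46.7 CPM fed, 36.1 and 35.1 CPM fasted and 37.8 and 37.7 CPM after leptin (−0.39, SE 0.17, FDR 0.0836), which left the leptin libraries near the fasted ones. The median over the members' start peaks was −0.18, with 8 of 34 above 0, and over all peaks near protein-coding starts it was −0.23, so most start peaks lay below 0 with fasting. The members' median was −0.29, with 1 of 34 above 0, without the fed library numbered 1, and −0.12, with 14 of 34 above 0, without the one numbered 2. At *Vldlr* the start peak was at −0.07 (FDR 0.783). A second *Vldlr* peak lay within 5 kb of the start (chr19:27218832-27219390, inside the gene). It was at 23.7 and 15.0 CPM fasted, 8.31 and 12.6 CPM fed and 16.6 and 10.5 CPM after leptin. It was called higher in the fasted state (0.84, SE 0.30, FDR 0.0437), with leptin values that overlap both. This was 1 of 40 tested peaks within 5 kb of a member start, beside 18.1% of all peaks called higher. Its relation to the *Vldlr* RNA was not tested. In leptin against fasted edgeR called 0 of 34 start peaks, 0 passed an unadjusted p of 0.05, and the median was 0.04 (−0.01 to 0.09 with 1 library left out), where 0.218% of peaks near protein-coding starts were called higher and 0.07% lower (2.41% and 0.669% of all peaks).

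**Figure D5:**
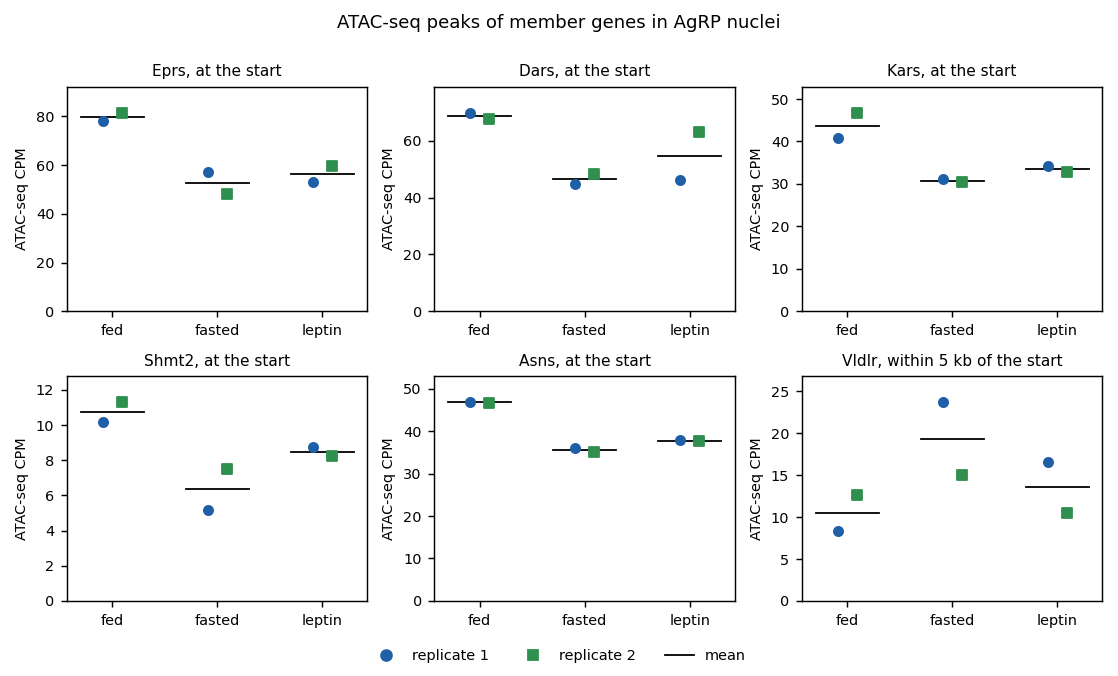
ATAC-seq CPM (y axis, from 0) in the 2 AgRP libraries of each state at the start peaks of *Eprs*, *Dars*, *Kars*, *Shmt2* and *Asns* and at the second *Vldlr* peak, with symbols for the library number and a line at the mean. At the 5 start peaks both fed libraries lie above both fasted ones, and at the *Vldlr* peak both fasted libraries lie above both fed ones.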

How the data were processed

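Male mice carrying NuTRAP and AgRP-IRES-Cre or POMC-IRES-Cre were fed, fasted, or fasted and given leptin. The authors aligned TRAP RNA reads to mm10 with HISAT2 and deposited whole-number read counts per gene from featureCounts, on an annotation modified to lessen overlap between genes. They aligned ATAC-seq reads with Bowtie2, called peaks with MACS2 and deposited counts per peak. Versions and strand setting are not given in the sources used here, so reads of overlapping genes may be shared. In TRAP of pooled tissue, fewer cells of a type and less RNA per cell cannot be told apart. Groups came from the sample titles. The extract protocol of the POMC samples names NuTRAP mice of the AgRP line, and their cell type label was followed. The fed AgRP group lacks the sample numbered 2.

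Features with a mean above 1 CPM were kept (13401 genes in AgRP, 13412 in POMC, 13453 in fed libraries of both types, 13435 for differences between types, 102237 peaks). They were tested in edgeR 4.0.16 (R 4.3.3; TMM scaling, glmQLFit and glmQLFTest, Benjamini-Hochberg over all features) within each neuron type, and tested by DESeq2 1.42.0 as an alternative. The fits of fasted against fed, of fed AgRP against POMC and of the fasting difference were tested on simulated data with independent libraries. The block and the other settings were tested in this way for AgRP fasted against fed only. The leptin comparisons and the fits with a library left out were not. Deviations from the group means of 10 AgRP pairs of libraries with the same number correlated at 0.587 to 0.853 (median 0.736) and those of 30 other pairs at −0.691 to 0.695 (median −0.257), so the number was taken to pair the libraries. No source says what the number marks. The members and all gene lists were chosen with earlier results of these data known. Values in every library are given for members called in an AgRP comparison with or without the block and for *Asns*. Other members are given by counts, ranges and the extremes of each role. Other pathway genes are named where called, fixed by name, or lower past the FDR alone after leptin. In the report, values without a library or with other scalings are given for chosen results, mostly where they change a call or move a value by over 1.5 times. Some calls that they change are not listed. The library values of *Eprs* and the genes past the FDR alone were picked after their values were seen. Levels per kilobase used summed exon length. RNA of whole arcuate tissue, ATAC-seq of AgRP(-) nuclei and CUT&RUN were not analysed here.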

Additional observations from a re-analysis of the deposited data

Results flagged for a closer look

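In groups of 4 AgRP libraries, the members' highest and lowest values were set against the other 3. Over 70 such groups, 10 had a library far from the rest, in 8 members, and in all 10 it was the library numbered 4; chance alone gives such a library in about 1 of 20 groups, but the 70 groups come from the same 8 libraries and are not independent, so the 2 shares cannot be compared as a test. Among the members given by library these were *Asns* in the fasted state (88.1 CPM in library 4, and 106 to 110 in the others), *Asns* after leptin (116 CPM, and 143 to 146), *Slc7a11* in the fasted state (112 CPM, and 24.9 to 27.8) and *Eprs* after leptin (73.2 CPM, and 583 to 676).

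In 3 cases the effect differed between AgRP and POMC neurons by the test of the difference itself in edgeR, with the library number as a block. The fasting effect was larger in AgRP neurons for *Cars*, by 0.60 on the log2 scale, and for *Vldlr*, by 0.69, and the leptin effect on *Vldlr* differed by −0.56. With the block, 4.33% of all genes were called higher and 1.89% lower for the fasting difference, and 0.335% and 0.424% for the leptin difference. None of these 3 was called without the block. With 1 library left out and no block, the fasting difference ran from 0.54 to 0.76 for *Cars* and from 0.39 to 0.94 for *Vldlr*, and the leptin difference for *Vldlr* from −0.87 to −0.17.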

How the results depend on the processing

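*Vldlr* was called higher in fasted against fed and lower in leptin against fasted AgRP neurons under all alternatives run. Counts of members called varied elsewhere. With the replicate number as a block (replicate block), fasted against fed gave 2 higher and 1 lower in place of 1 and 0, the fasting difference between types 2 higher in place of 0 and the leptin difference 1 lower in place of 0; the block moved no other count of called members by more than 1.5 times. In POMC neurons the same-numbered libraries correlated at 0.779 to 0.810, from 2 numbers only. In ATAC-seq they did so at −0.00861 to 0.193 and share only a number. There the block gave 4 lower start peaks in place of 3, with *Shmt2* added. Of 12854 peaks near protein-coding starts it called 615 lower in place of 463. Without the 3 AgRP libraries numbered 4, chosen after seeing the data, fasted against fed gave 2 higher and 1 lower, leptin against fed 1 higher in place of 2, and AgRP against POMC 2 higher in place of 0. In these fits 3.01%, 3.87% and 1.12% of all genes were called higher, and 2.27% lower in the first. Leptin against fed gave 0 higher by library size scaling and with no filter on low counts, beside 1.45% and 2.03% of all genes. It gave 1 higher with RLE size factors or with a mean over 5 CPM, beside 3.51% and 3.14%. The main fit called 3.73% of all genes higher, so the calls over all genes fell too. AgRP against POMC gave 1 higher by library size scaling and by DESeq2, beside 1.50% and 2.42% of all genes. It gave 6 higher and 1 lower with all 3 states, beside 6.48% and 7.20%. ATAC-seq fasted against fed gave 1 higher within 5 kb in place of 0, beside 18.1% of all peaks. It gave 1 lower with a mean over 5 CPM in place of 3, beside 6.03% of all peaks in place of 8.88%. Leaving out each library in turn gave 1 to 4 higher in fasted against fed (4 without the fasted library numbered 4), 0 to 5 higher in leptin against fed, 0 to 2 higher in AgRP against POMC, and 0 to 3 lower start peaks; where 1 library was left in a group, it was assumed to vary like the other groups. The older quasi-likelihood fit and peaks near any transcript start, also chosen after seeing the data, moved no such count. With 1 AgRP library left out, 1.51% to 3.21% of all genes were called higher in fasted against fed. In leptin against fed it was 2.00% to 4.57%. Causes were not tested. No scaling moved the median of all genes by over 0.1.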
